A study of Mus musculus with 6 samples.

Results

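Myelin around the axons of peripheral nerves and spinal roots is made by Schwann cells, whereas oligodendrocytes make the myelin of the spinal cord itself. The 8 genes described here are known for work in the Schwann cell, and several of them are Charcot-Marie-Tooth neuropathy genes in people. They were found by name: every non-control probe whose gene name in the scanner files was Pmp22, Pmp2, Prx, Egr2, Gjb1, Gldn, Drp2 or Sh3tc2 was taken, which gave 10 probes of 8 genes out of 41174 probes carrying 27343 gene names. Of the 10 probes, 9 were bright enough to be tested, and they stood for all 8 genes.

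Spinal cord RNA was hybridised to single-dye (Cy3) Agilent whole-genome arrays, with 3 wild-type and 3 Dhtkd1 null samples from C57BL/6 males aged 8 weeks. Dhtkd1 encodes a mitochondrial enzyme of lysine and tryptophan breakdown. Both of its probes were lower on all 3 null arrays than on any wild-type array, by 1.08 and 1.07 on the log2 scale; the deleted stretch of the gene is not given in the sources used here, so it is not known whether these probes lie inside it. Replicates are numbered in the labels, which do not state whether each is its own animal, so p-values measure only the spread between these samples, which may be technical. The 75th percentile of processed intensity lay between 950 and 1055 on the 6 arrays, and the share of spots that the scanner software called well above background was 78.4% to 82%. Slide 1 held wild-type replicate 2 and the 3 null samples, and slide 2 held wild-type replicates 1 and 3.

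A spinal cord cut free of the spine can keep a variable length of dorsal and ventral root, in which Schwann cells lie. In bulk tissue fewer Schwann cells and less RNA per Schwann cell cannot be told apart. Each member is therefore given array by array. Signals are log2 of the processed intensity minus the same for the 75th percentile of that array, so that 0 is the brightness of the 75th percentile. Signals of different probes are not set against each other, because probes differ in how well they bind.

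The probes that read Pmp2, Gjb1 and Drp2 are shown because Pmp2 had the largest difference between the genotypes among the members, Gjb1 was highest on an array where most members were low, and the 2 Drp2 probes read the same gene at separate places. Each is 60 bases long, written 5′ to 3′, with positions on mm9 as the files give them. The Pmp2 probe lies at chr3:10182422-10182481 on the minus strand and the Gjb1 probe at chrX:98579837-98579896 on the plus strand. The listed spans of the Drp2 probes, chrX:130986826-130987172 and chrX:130981216-130981543, are 347 and 328 bases, longer than the probes, so each probe is listed across a splice junction.
Pmp2: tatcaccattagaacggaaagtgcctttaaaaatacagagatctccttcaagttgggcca
Gjb1: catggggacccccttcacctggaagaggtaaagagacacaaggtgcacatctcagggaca
Drp2 first probe: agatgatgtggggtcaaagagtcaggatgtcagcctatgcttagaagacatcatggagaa
Drp2 second probe: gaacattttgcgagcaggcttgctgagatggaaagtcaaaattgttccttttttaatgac

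Of the myelin proteins, Pmp22 encodes a tetraspan protein of compact peripheral myelin whose dosage is known to matter in Charcot-Marie-Tooth disease. Its first probe (chr11:62972914-62972973, plus strand) read 6.60, 4.47 and 5.08 in wild-type replicates 1, 2 and 3 and 3.99, 5.14 and 4.72 in null replicates 1, 2 and 3. Wild-type replicate 1 was the highest and null replicate 1 the lowest, and the groups overlapped. The null mean was 4.62 ± 0.58 and the wild-type mean 5.38 ± 1.10 (SD, n = 3 each). The difference was -0.76 (SE 0.59, 95% interval -2.21 to 0.68, limma adjusted p = 0.7406). A second probe named Pmp22, placed at chr11:62943886-62943945 on the minus strand and designed from a cDNA clone, was well above background on 0 of 6 arrays and was not tested.

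Pmp2 encodes a fatty acid-binding protein of peripheral myelin. It read -2.91, -5.58 and -4.52 in the wild-type samples and -7.50, -7.00 and -6.43 in the null samples. In processed intensity these were 135, 21.1 and 41.4 units against 5.83, 7.68 and 12 units. Every wild-type array was above every null array. The Pmp2 probe was well above background on all 3 wild-type arrays and on 0 of the 3 null arrays, so that it entered the test through the wild-type group alone. The null mean was -6.97 ± 0.54 and the wild-type mean -4.34 ± 1.35 (SD, n = 3 each), a difference of -2.64 (SE 0.69, 95% interval -4.33 to -0.95). The limma p-value was 0.008787, and 0.5143 after Benjamini-Hochberg adjustment over 33191 probes. The exact 2-sided permutation test gave p = 0.1, the smallest that 3 against 3 can give.

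Since Pmp2 was not well above background on the null arrays, the fold was also computed against a floor. For each null array the floor was the higher of the probe's own reading and the dimmest signal well above background. The latter was -6.87, -6.83 and -6.85 in null replicates 1, 2 and 3. The fold is taken from the difference of the mean log2 values. On that basis Pmp2 was 5.19-fold lower in the null samples. Null replicate 3 read -6.43, above the dimmest such signal of its array, and was still not well above background. The fold against the floor is therefore not a strict minimum. It ran from 3.16-fold without wild-type replicate 1 to 7.99-fold without wild-type replicate 2, and it was 2.19-fold within slide 1. Every wild-type reading lay above every null floor, so leaving out an array or a slide could not change the direction. The size of the fold depended on wild-type replicates 1 and 2 and on the slide.

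The genes of proteins that hold the Schwann cell to its axon and basal lamina differed far more in signal between arrays than between genotypes. Prx encodes periaxin, a scaffold beneath the outer Schwann cell membrane. Its probe on chromosome 7 read 2.25, -1.29 and 0.26 in the wild-type samples and -1.78, 0.57 and -0.01 in the null samples. The highest and lowest arrays, wild-type replicate 1 and null replicate 1, were 16.3-fold apart, and the 3 wild-type arrays alone spanned 11.7-fold. The difference was -0.81 (SE 1.02, 95% interval -3.32 to 1.69, limma adjusted p = 0.8285).

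Drp2 encodes dystrophin-related protein 2, which joins periaxin to dystroglycan in patches under the Schwann cell membrane. The first probe read -1.14, -2.70 and -2.69 in the wild-type samples and -2.95, -1.83 and -2.15 in the null samples. The second probe read -2.21, -3.57 and -3.43 against -3.63, -2.79 and -3.17. Both probes were highest in wild-type replicate 1 and lowest in null replicate 1, with null replicate 2 second, so that the 2 readings of one transcript kept the same outline. Their differences were -0.14 (SE 0.51) and -0.12 (SE 0.41), with intervals of -1.39 to 1.12 and -1.14 to 0.89.

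Gldn encodes gliomedin, which Schwann cell microvilli release at the node of Ranvier. It read -3.14, -5.75 and -4.59 in the wild-type samples and -5.52, -4.79 and -5.22 in the null samples. The 3 null arrays all lay between the wild-type extremes. The difference was -0.69 (SE 0.65, 95% interval -2.27 to 0.90, limma adjusted p = 0.7792).

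Egr2 encodes Krox20, the zinc finger factor that drives the Schwann cell myelin programme. Its probe is spotted 10 times on each array, and the spots were averaged. It read 1.06, -2.34 and -1.01 in the wild-type samples and -2.02, -0.32 and -0.81 in the null samples. Wild-type replicates 1 and 2 were the highest and the lowest of the 6 arrays and differed 10.6-fold. The difference between genotypes was -0.29 (SE 0.92, 95% interval -2.53 to 1.96, limma adjusted p = 0.9364).

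The other two members varied less between arrays. Gjb1 encodes a connexin, a gap junction protein of Schwann cell incisures and paranodes that oligodendrocytes make as well. It read -1.65, -0.97 and -1.60 in the wild-type samples and -1.43, -1.73 and -1.56 in the null samples. Its highest array was wild-type replicate 2, which was the lowest or the second lowest for Pmp22, Prx, Egr2, Gldn and both Drp2 probes. The difference was -0.17 (SE 0.20, 95% interval -0.66 to 0.33). Sh3tc2 encodes an endosomal recycling protein of Schwann cells. It read -0.14, -0.12 and -0.21 in the wild-type samples and -0.43, -0.02 and -0.55 in the null samples, a difference of -0.17 (SE 0.15, 95% interval -0.54 to 0.19).

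**Figure D1:**
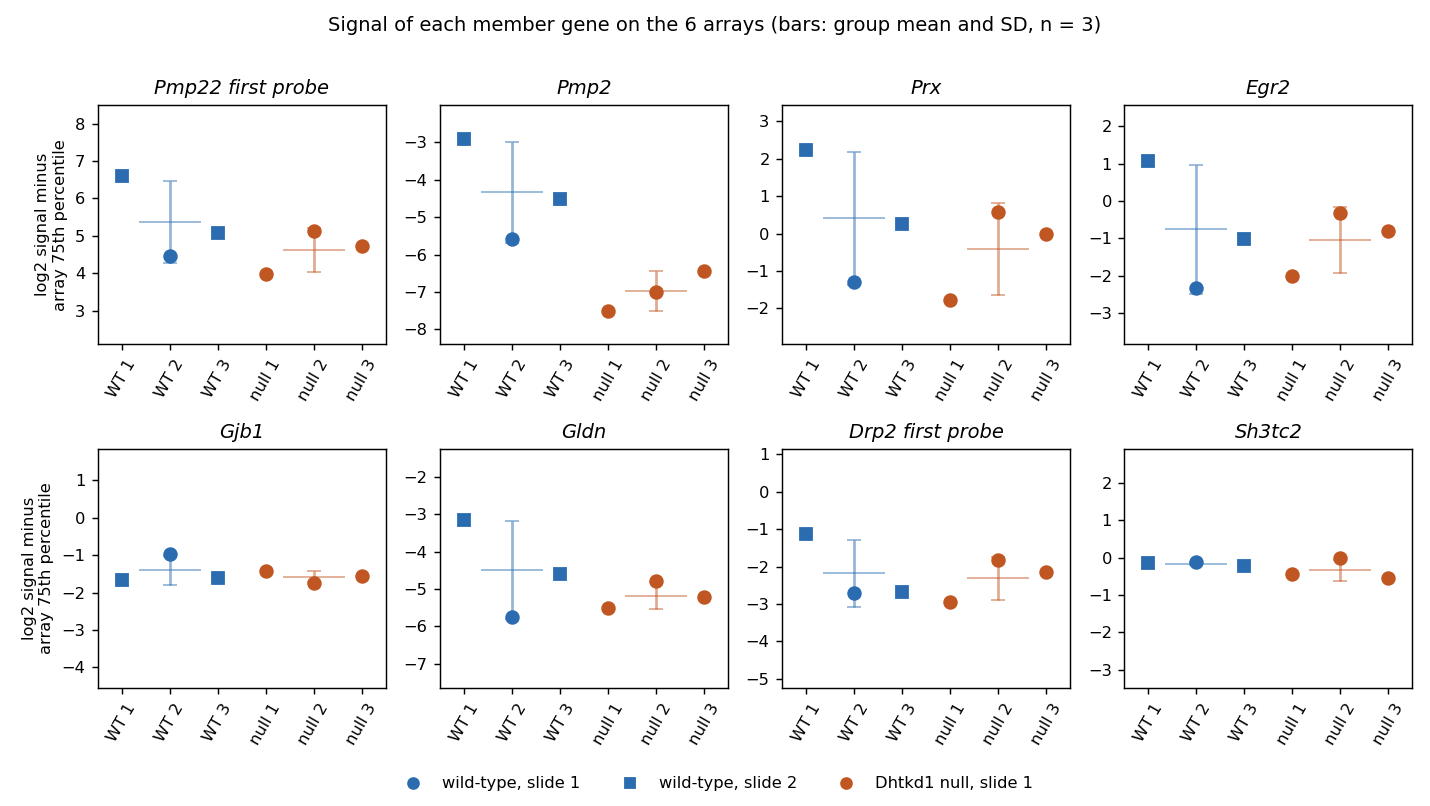
Log2 signal minus the array's 75th percentile for 8 member genes, with 1 probe each, on the 6 arrays; points are arrays, circles and squares are slides 1 and 2, and bars give the group mean and SD (n = 3). The panels share one scale length but not one zero: Pmp2 shows no overlap between the groups, whereas Prx and Egr2 spread over 4.03 and 3.41 log2 units with overlapping groups, and Gjb1 and Sh3tc2 over 0.76 and 0.53.

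Counted over genes, the null mean was the lower for 8 of 8 members, beside 41.9% of all probes tested, and the median difference was -0.49, beside 0.03 over all probes. No member probe passed an adjusted p of 0.05, and neither did any of the 33191 probes (0%). At an unadjusted p under 0.05 the 1 member called was Pmp2, which was tested through the wild-type group alone and was at background in null, beside 2.68% of all probes called lower, and 0 members were called higher, beside 5.51% of all probes. Pmp2 was also the member whose null arrays all lay below the wild-type arrays, beside 4.84% of all probes. The members share their arrays, so these counts are not independent of each other. Without wild-type replicate 1 the median was -0.08, and the differences of Prx, Egr2 and both Drp2 probes turned to 0.11, 0.63, 0.38 and 0.31, while those of Pmp22 and Gldn shrank to -0.16 and -0.01. With the 7 members well above background on all 6 arrays, which leaves out Pmp2, the median was -0.29. Without null replicate 1 the median was -0.18. Within slide 1, where 1 wild-type array faced 3 null arrays, the median was 0.27.

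**Figure D2:**
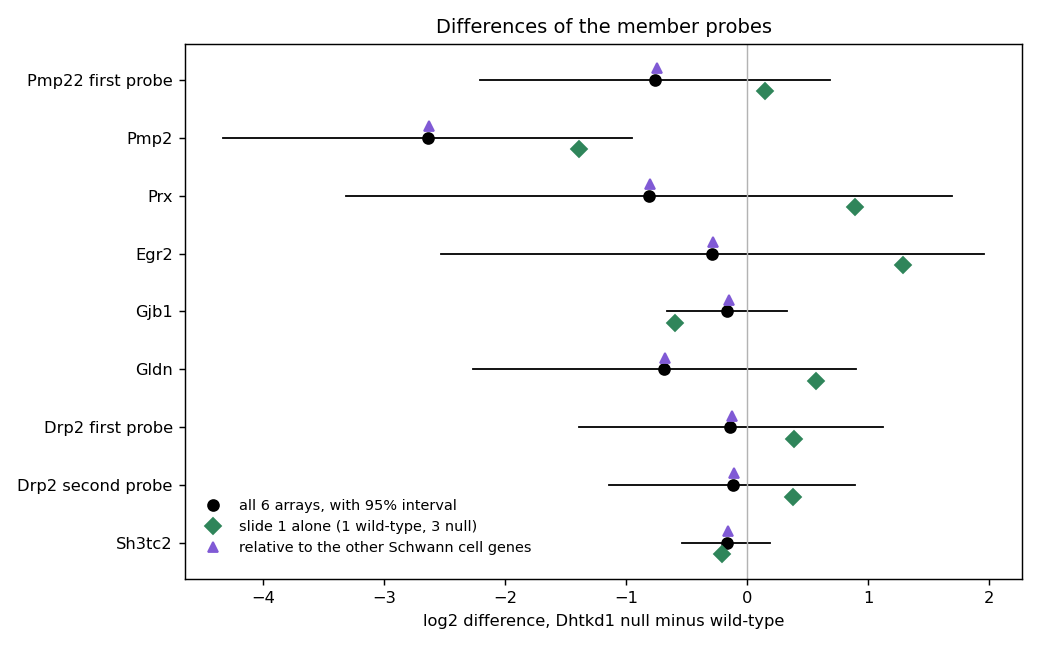
Log2 difference, Dhtkd1 null minus wild-type, of the 9 member probes tested: black points and lines are the fit over 6 arrays with 95% intervals, green diamonds slide 1 alone and purple triangles the difference relative to the other Schwann cell genes. Pmp2, at background in null, lies below 0 in all 3 (-2.64, -1.39 and -2.63), while Prx and Egr2 lie below 0 over 6 arrays and above 0 within slide 1 (0.89 and 1.29).

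Several members ranged widely between arrays. A range of at least 2 log2 units over the 6 arrays was seen in 3.66% of all probes tested. The ranges of Pmp2 (4.59), Prx (4.03), Egr2 (3.41), Gldn (2.61) and the first Pmp22 probe (2.61) were above that mark. A range as wide as that of Pmp2 was found in 0.229% of probes and one as wide as that of Prx in 0.443%. The low end for Pmp2 was null replicate 1 at -7.50, under the dimmest signal well above background there (-6.87). Its range of 4.59 is thus not a measured range, and Pmp2 was tested through the wild-type group alone. Over the 3 wild-type arrays Pmp2 spanned 2.67. The Drp2 probes spanned 1.82 and 1.43. Gjb1 and Sh3tc2, at 0.76 and 0.53, were within ranges that 23.6% and 40% of all probes reached.

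To read Schwann cell RNA on each array independently of the members, 10 other Schwann cell genes were averaged after centring each on its own mean over the 6 arrays. They were Ncmap, Cldn19, Dhh, Pou3f1, Cdh19, Scn7a, Gfra3, Adgrg6, Ngfr and Foxd3, some of which other cells of the cord also express. Their mean was 0.77, -0.73 and -0.02 in wild-type replicates 1, 2 and 3 and -0.76, 0.28 and 0.47 in null replicates 1, 2 and 3. Wild-type replicate 1 was the highest and null replicate 1 the lowest, as for Pmp22, Prx and Drp2, and the groups overlapped.

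Most members ran with that mean, but no Pearson's r among the 18 relations computed passed an adjusted p of 0.05. Over the 6 arrays r was 0.93 for Egr2 and 0.92 for Prx (exact permutation p = 0.008333 and 0.009722, adjusted 0.075 each), with rho of 0.89 and 0.83 (adjusted 0.06667 and 0.0875). The Drp2 probes had r of 0.88 and 0.86 (exact permutation p = 0.02083 and 0.02639, adjusted 0.075 each) and rho of 0.94 each (adjusted 0.06). Pmp22 had r of 0.81 (exact permutation p = 0.025, adjusted 0.075; rho 0.83, adjusted 0.0875) and Gldn r of 0.78 (exact permutation p = 0.05417, adjusted 0.08864; rho 0.71, adjusted 0.1885). Without null replicate 1 and wild-type replicate 2, the arrays farthest from the median of the Schwann cell mean, r over the other 4 was 0.91 and 0.85 for Drp2, 0.83 for Egr2, 0.73 for Prx, 0.68 for Pmp22 and 0.59 for Gldn. Over the 4 arrays of slide 1, given as a description with no test, r was 0.91 and 0.87 for the Drp2 probes, 0.93 for Prx, 0.94 for Egr2, 0.80 for Pmp22 and 0.82 for Gldn; slide 2 holds 2 arrays, too few for an r. With each genotype's own mean removed, r over the 6 arrays was 0.88 and 0.87 for the Drp2 probes, 0.97 for Prx, 0.94 for Egr2, 0.92 for Pmp22 and 0.85 for Gldn.

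For Pmp2, Sh3tc2 and Gjb1 r with the Schwann cell mean was lower. Pmp2 had r of 0.50 with the Schwann cell mean (exact permutation p = 0.3014, adjusted 0.3617; rho 0.54, adjusted 0.3567), and 0.37 without null replicate 1 and wild-type replicate 2. With each genotype's own mean removed, r for Pmp2 was 0.92, and in slide 1 it was -0.07. The 3 null readings behind each r for Pmp2 were not above background, which is 3 of the 4 readings in slide 1. Sh3tc2 had r of 0.09 (exact permutation test, adjusted p = 0.9088; rho 0.03, adjusted 1), 0.10 with genotype means removed and -0.10 in slide 1. Gjb1 had r of -0.74 (exact permutation p = 0.05, adjusted 0.08864; rho -0.66, adjusted 0.225), which was -0.09 without null replicate 1 and wild-type replicate 2 and so rested on those arrays. It was -0.79 with genotype means removed and -0.74 in slide 1. Gjb1 instead ran with the mean of 17 central myelin and oligodendrocyte genes, with r and rho of 0.89, though neither passed after adjustment (exact permutation test, 0.075 and 0.06667), and r was 0.66 without wild-type replicates 1 and 2 and 0.96 in slide 1. As a difference from that central mean, Gjb1 ranged over 0.35 log2 units, where its signal ranged over 0.76. Egr2 ran opposite to the central mean (r = -0.86, exact permutation p = 0.02917, adjusted 0.075, and rho = -1, adjusted 0.05). Without wild-type replicates 1 and 2 its r was -0.81. Prx, Drp2, Gldn and Pmp22 shared this direction. Against the central mean r was -0.75 for Prx, -0.79 and -0.80 for the Drp2 probes, -0.65 for Gldn and -0.61 for Pmp22. Their rho was -0.89, -0.94 for each Drp2 probe, -0.83 and -0.89, and none passed after adjustment. Without wild-type replicates 1 and 2, r was -0.62 for Prx, -0.97 and -0.91 for Drp2, -0.13 for Gldn and -0.49 for Pmp22. For Pmp2 and Sh3tc2 r was -0.14 and 0.04.

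**Figure D3:**
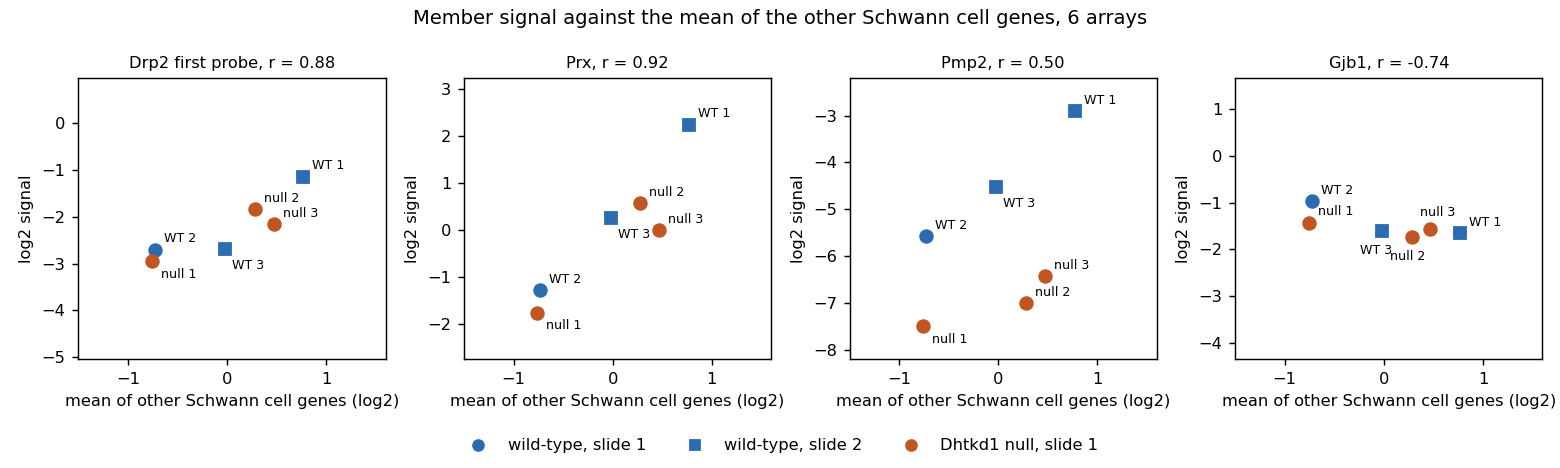
Log2 signal of 4 member probes against the mean of the 10 other Schwann cell genes on the same array, each centred on its 6-array mean (6 arrays; orange is null, blue is wild-type, circles and squares are slides 1 and 2). The first Drp2 probe and Prx run upwards with it (r = 0.88 and 0.92), the 3 null arrays of Pmp2 lie below all 3 wild-type arrays, and Gjb1 stays within 0.76 log2 units.

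Within an array, a member can be set against the same 10 Schwann cell genes, and only the difference between arrays of such a log ratio has meaning. Relative to them, Pmp2 was -3.68, -4.85 and -4.50 in the wild-type samples and -6.74, -7.28 and -6.89 in the null samples. The groups did not overlap, as was already so for the signal. The wild-type SD was 0.60, where that of the signal had been 1.35. The null SD of 0.28 (0.54 for the signal) is a spread of readings at background and not of Pmp2. Since the null readings are not above background, the same floor as above was used, and Pmp2 was 5.15-fold lower against it. Within slide 1 it was 3.62-fold lower, and neither fold is a strict minimum. The exact 2-sided permutation test gave p = 0.1, the smallest that 3 against 3 can give, and the limma adjusted p of 0.09113 likewise rests on null readings at background. Each of the 10 genes was also left out of the reference in turn, a check chosen after seeing the data. The readings of the groups did not overlap in 10 of 10, but these references share most of their genes and are not separate checks. The limma adjusted p ran from 0.005356 to 0.4553, so no call was drawn from it.

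The first Pmp22 probe likewise separated on this scale, with 5.83, 5.20 and 5.10 in the wild-type samples and 4.75, 4.85 and 4.25 in the null samples. That difference was -0.75 (exact permutation p = 0.1; limma adjusted p = 1), and it lay between -0.86 and -0.69 with each reference gene left out. Pmp22 and Pmp2, the latter at background in null, were the 2 of 9 member probes whose groups did not overlap on this scale. Of all probes 0.265% did so, but subtracting a mean whose own groups overlap adds that overlap to probes that do not follow it, so nothing is read from this share. The separation of Pmp22 depended on the reference. Against the central myelin genes its groups overlapped (6.81, 4.10 and 4.99 in wild-type, 3.89, 5.32 and 4.88 in null). Within slide 1 its difference was 0.59 against those genes and -0.58 against the Schwann cell genes. Of the Schwann cell genes, Gfra3, Ngfr, Adgrg6 and Cdh19 were highest in null replicate 3, and the others on other arrays. A reference without Gfra3, Ngfr, Adgrg6 and Cdh19 together was not tested.

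The other Schwann cell genes showed the same outline in part. Of these 10 genes, 4 ranged over at least 2 log2 units, 6 were higher and 4 lower in null, and 0 passed after adjustment (median difference 0.06). Dhh, a hedgehog ligand that Schwann cells send to the perineurium, read 2.06, -1.43 and 0.29 in the wild-type samples and -2.14, 0.26 and -0.04 in the null samples. That is again wild-type replicate 1 highest and null replicate 1 lowest. The smallest p-values in this list belonged to Cdh19, a cadherin of glial precursors (0.28, SE 0.09, limma adjusted p = 0.5771), and Gfra3, an artemin receptor subunit (0.51, SE 0.32, adjusted 0.6946). Both had the higher mean in null.

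The array means of the lists set these side by side. Each gene was first centred on its own mean over the 6 arrays. The 8 members averaged 1.41, -0.49 and 0.14 in the wild-type samples and -0.91, 0.05 and -0.20 in the null samples. The range of these means was 2.32, beside 1.53 for the other Schwann cell genes. Pmp2 is among the 8 members, was tested through the wild-type group alone and was at background in null. The members' means on the null arrays, and their range, thus include readings that are not levels of Pmp2. The 17 central myelin genes moved over 0.58 in all, with wild-type replicate 2 highest at 0.36 and wild-type replicate 1 lowest at -0.21. Mbp, a main protein of central myelin, was bright on all 6 arrays, at 7.49 to 7.66, so that this marker of the labelled tissue was present throughout.

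**Figure D4:**
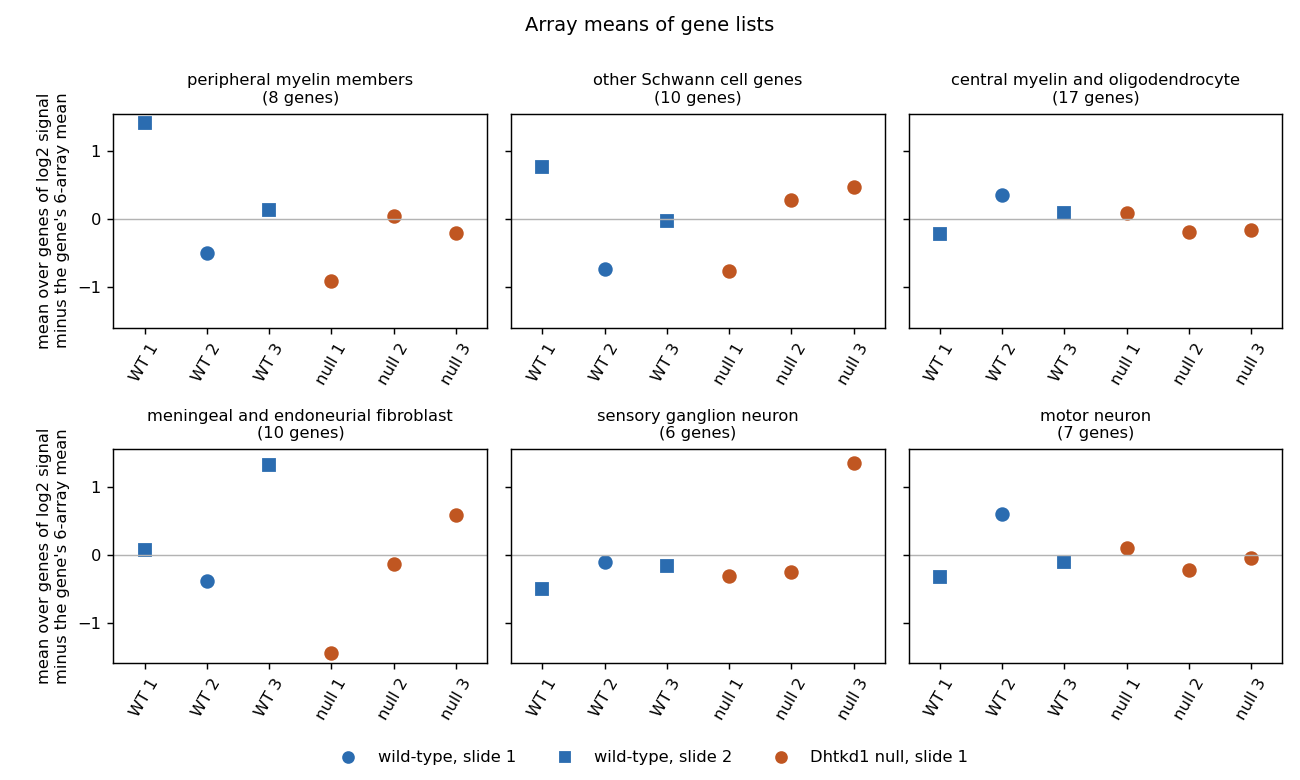
Mean over the genes of a list of log2 signal minus each gene's 6-array mean, by array, for 6 lists (blue is wild-type, orange null; circles and squares are slides 1 and 2). The members and the other Schwann cell genes are highest in wild-type replicate 1 (1.41 and 0.77). Both are lowest in null replicate 1 (-0.91 and -0.76). The members' mean includes Pmp2, which was at background in null. Fibroblast genes run from -1.45 in null replicate 1 to 1.31 in wild-type replicate 3. Sensory ganglion genes stand out in null replicate 3 (1.35).

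Markers of tissue next to the cord also varied between arrays, and their part in the members' values was not tested. The mean of 10 meningeal and endoneurial fibroblast genes ran from -1.45 in null replicate 1 to 1.31 in wild-type replicate 3, with 8 of 10 lower in null, led by Lum (-1.41, SE 0.73) and Col1a1 (-1.23, SE 0.70). Of 10 sensory ganglion genes 7 were on the array and 6 were tested, and their mean was 1.35 in null replicate 3 and between -0.51 and -0.10 elsewhere. The ganglion genes of smallest p were Prrxl1 (0.71, SE 0.18) and Scn10a (1.20, SE 0.62), and the receptor Ngfr, which sits in the Schwann list and which sensory neurons share, was highest in null replicate 3 too (0.04, against -1.84 to -0.89 elsewhere). Adipocyte genes spanned 3.62 and skeletal muscle genes 2.68 between arrays, with 6 of 6 and 7 of 7 higher in null. They were led by Ucp1 (1.78, SE 1.15) and Retn (0.71, SE 0.69), and by Ckm (0.89, SE 0.69) and Myh4 (0.80, SE 0.65). Motor neuron genes spanned 0.93 (Mnx1 -0.36, SE 0.24; Ret 0.13, SE 0.19). Lists of genes of the cord itself moved less: astrocyte genes over 0.36 (Aqp4 -0.33, Aldh1l1 0.12), microglial genes over 0.45 (Aif1 0.34, P2ry12 -0.22) and neuronal genes over 0.23 (Syt1 0.37, Rbfox3 0.20).

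Genes that work with the members or near them came from 4 lists, and 0 genes in any of them passed after adjustment. Among 17 partners and regulators of Egr2, 13 were lower and 4 higher in null (median -0.13), beside 41.9% of all probes with a lower null mean. Of the 17 genes, 3 were at an unadjusted limma p under 0.05, all lower, beside 2.68% of all probes called lower. Sox10, the neural crest factor that switches Egr2 on in Schwann cells and is also present in oligodendrocytes, read 2.76, 3.12 and 2.79 in the wild-type samples and 2.46, 2.37 and 2.47 in the null samples. Its groups did not overlap, with null below, as was so for 4.84% of all probes (difference -0.46, SE 0.12, limma adjusted p = 0.5143). Zeb2, a repressor needed for Schwann cell maturation, read 2.00, 2.33 and 2.26 against 1.52, 1.59 and 1.74 (difference -0.58, SE 0.12, limma adjusted p = 0.4046). The other Zeb2 probes differed by -0.41 to -0.04. Neither gene followed the outline of the members: Sox10 and Zeb2 were both highest in wild-type replicate 2, where Egr2 was lowest.

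Among 15 dystroglycan, laminin and integrin partners of periaxin and Drp2, 12 were lower and 3 higher in null (median -0.17). None was at an unadjusted limma p under 0.05, beside 2.68% of all probes called lower and 5.51% higher. The smallest p-values were those of Itgb4, the integrin chain of the mature Schwann cell surface (-0.42, SE 0.18, adjusted p = 0.6159 in the limma fit), and Dmd, dystrophin (-0.17, SE 0.10). Among 13 genes of the node of Ranvier and the stretches of axon beside it, 10 were higher and 3 lower (median 0.04). Closest to the threshold were Sptbn4, the spectrin of the node (0.21, SE 0.11), and Epb41l3, an adaptor of the paranode (-0.16, SE 0.10). Among 12 genes of signalling between axon and Schwann cell, 9 were lower and 3 higher (median -0.07). Erbb3, the neuregulin receptor, had its brightest probe at 1.07, 1.10 and 1.05 in the wild-type samples and 0.60, 0.69 and 0.96 in the null samples (difference -0.32, SE 0.11, limma adjusted p = 0.5783). Its 4 dimmer probes differed by 0.01 to 0.26 in the opposite direction. Mag, an adhesion protein of both kinds of myelin, differed by -0.35 (SE 0.20). In the central myelin list 14 of 17 were lower (median -0.16), with Aspa, the aspartoacylase of oligodendrocytes, at -0.48 (SE 0.13, limma adjusted p = 0.5143), and Opalin, an oligodendrocyte membrane protein, at -0.71 (SE 0.30, adjusted 0.613).

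The array profiles most like the members' mean profile were sought among 21428 other gene names, as a description over 6 arrays. That mean profile includes Pmp2, which was at background in null. In all, 237 names had r of at least 0.9, of which 34 also ranged over at least 2 log2 units. The 10 closest were Enkur (r = 0.996), Dag1, H2-DMb1, Stk33, Gk5, Itpr3, Mical1, Metrnl, Slc26a3 and Armh1 (r = 0.982). Dag1, dystroglycan, is the laminin receptor to which Drp2 and periaxin attach. It read 2.23, 1.66 and 1.88 in the wild-type samples and 1.47, 1.79 and 1.77 in the null samples, a range of 0.76. H2-DMb1, of the antigen presentation pathway, had the widest range of the 10 (2.15), and the others ranged from 0.36 for Gk5 to 1.62 for Enkur.

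RefSeq promoter windows (GRCm38.p6) were found for 5 of the 8 members, and the 250 bases before each start were searched on both strands for GNGTGGGNG, the core bound by Egr factors, and for ACAAAG, a core of Sox factors; these letters do not overlap each other. GNGTGGGNG was in 12.7% and ACAAAG in 16.5% of all 32851 windows of that length. GNGTGGGNG was found before the 1 start of Prx and before 1 of 4 starts of Gjb1, and ACAAAG before 2 of 4 starts of Gjb1. Neither was found before the starts of Pmp22, Egr2 or Gldn. The windows of Prx and Gjb1, the members with a GNGTGGGNG match, are shown with matches in capitals, chr7:27499074-27499323 and chrX:101383482-101383731, both on the plus strand.
Prx: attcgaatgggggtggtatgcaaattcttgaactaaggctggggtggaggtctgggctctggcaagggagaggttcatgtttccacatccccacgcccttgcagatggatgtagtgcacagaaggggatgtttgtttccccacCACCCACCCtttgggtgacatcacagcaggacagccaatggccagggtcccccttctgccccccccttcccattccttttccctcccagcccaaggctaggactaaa
Gjb1: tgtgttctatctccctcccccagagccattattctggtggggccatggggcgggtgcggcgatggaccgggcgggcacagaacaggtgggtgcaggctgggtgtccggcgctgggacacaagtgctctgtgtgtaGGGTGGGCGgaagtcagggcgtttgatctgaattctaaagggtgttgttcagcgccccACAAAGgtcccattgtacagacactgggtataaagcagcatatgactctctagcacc
A match of letters is a description of the window and not of binding.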

How the data were processed

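Expression was measured in 6 spinal cord samples, 1 array each. Per the file headers, the authors' scanner intensity values came from Agilent Feature Extraction 10.7.3.1 and array design 014868, background-subtracted and detrended within each array; probe positions are on mm9. The deposited value table is in log2 units by a method not given in the sources used here; its column medians were all 7.22 and it followed the scanner values (r of at least 0.9997), so it served as an alternative.

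Processed intensities were taken to log2 minus each array's 75th percentile, outlier spots (58 to 89 per array) left out and spots of a probe averaged. Probes well above background on at least 3 of 6 arrays were kept (33191). Null minus wild-type was fitted per probe with limma 3.58.1 (lmFit, eBayes, 2-sided) in R 4.3.3, without covariates, with Benjamini-Hochberg adjustment over all kept probes. The fit was tested on simulated data. A listed gene stands for its brightest kept probe. Named from each list were the genes past the threshold, or otherwise the 2 of smallest p, and the 10 closest profiles. Results for some genes are not reported here. The members and lists were chosen with earlier results of these data known. The number of arrays limits the precision. Alternatives covered scaling, background, filters, slide, pairing, reference and each array left out.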

Additional observations from a re-analysis of the deposited data

How the results depend on the processing

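In each alternative run, apart from the reduced reference lists given next, 0 member probes and 0 listed genes passed an adjusted p of 0.05. The difference of Pmp2 ran from -3.26 to -1.92 with 1 array left out. It was -1.39 with slide as a fixed block or slide 1 alone. With every wild-type reading above every null reading, these settings could not turn its direction. After normexp, whose offset of 50 adds to dim readings, it was -0.74. The filter for all 6 arrays removed Pmp2. Its null readings were at background, so these sizes are not measured levels. For the same reason no call was drawn from the 4 of 10 reduced reference lists (without Ncmap, Cldn19, Dhh or Scn7a; chosen after seeing the data) in which its adjusted p fell under 0.05. With slide as a fixed block, and equally in slide 1 alone, the differences turned to 0.15 for Pmp22, 0.89 for Prx and 1.29 for Egr2. They turned to 0.57 for Gldn and to 0.39 and 0.38 for Drp2. Gjb1 moved further from 0 in these slide settings, from -0.17 to -0.60, and Sh3tc2 went from -0.17 to -0.21. The median over members, -0.49, became 0.27 there, -0.48 relative to the 10 other Schwann cell genes, -0.35 after normexp, -0.29 with the filter for all 6 arrays, which removes Pmp2, and -1.15 to -0.08 with 1 array left out. With 1 array left out the differences ran from -1.22 to -0.16 for Pmp22, -1.31 to -0.01 for Gldn, -0.33 to -0.07 for Sh3tc2, -1.66 to 0.11 for Prx, -1.08 to 0.63 for Egr2, -0.29 to 0.05 for Gjb1, and -0.40 to 0.38 and -0.38 to 0.31 for the Drp2 probes. The highest of those values came without wild-type replicate 1, except for Gjb1 (wild-type replicate 2) and Sh3tc2 (null replicate 3), and leaving out null replicate 1 turned Egr2 to 0.20 and Drp2 to 0.18 and 0.09. Apart from the slide settings and the arrays left out, the cause was not tested. Same-numbered samples deviated with r of -0.02, -0.09 and 0.30, so the numbers were not taken to pair them; with a replicate block the median over members was -0.49 and Pmp2 had a limma p of 0.01975, adjusted 0.6024.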
